A study of Mus musculus with 4 samples.

Results

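A set of 10 Hox genes was followed across mouse embryonic stem (ES) cells and the neural progenitor cells (NPCs) made from them, with and without the de novo DNA methyltransferases Dnmt3a and Dnmt3b. They were the measured Hoxc and Hoxd genes with paralog numbers up to 9: Hoxc4, Hoxc5, Hoxc6, Hoxc8 and Hoxc9 on chromosome 15, and Hoxd1, Hoxd3, Hoxd4, Hoxd8 and Hoxd9 on chromosome 2. They were taken by symbol, with no measured value used in the choice, and made up 10 of the 39 Hox genes and of the 23235 genes in the expression table.

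Hox genes encode homeodomain transcription factors that give cells along the head-to-tail axis their positional identity. Within each cluster they lie in the order in which they are switched on, so that low paralog numbers appear first, in the hindbrain and neck, and high numbers later and further back. Retinoic acid, the vitamin A derivative used to posteriorize differentiating ES cells, acts through nuclear receptors on enhancers in the early part of the clusters, while Polycomb proteins keep the clusters silent in ES cells.

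Each group held 1 RNA-seq library from 1 culture. WT_ES was undifferentiated ES cells of the J1 background, strain 129S4/SvJae, at day 0, and DKO_ES was ES cells of that strain lacking Dnmt3a and Dnmt3b. WT_NP and DKO_NP were their day 6 products, taken after 4 days as embryoid bodies and 2 days with retinoic acid. All ES cells were grown in serum with leukemia inhibitory factor, and the irradiated feeder cells of earlier passages had been removed by passaging onto gelatin. The labels name 1 line per genotype, so genotype, line and library cannot be told apart, and no p-value can be given.

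Depth and labels were checked first. Steps between low values gave the relative depths of the libraries. With GENCODE M21 lengths of 340 single-transcript genes, these came to about 13.9 M reads in WT_ES and 15.1 M in DKO_ES (M, 10 to the power of 6). The NPC libraries came to 36.4 M in WT_NP and 25.2 M in DKO_NP. The annotation behind the deposited values was not given, so these totals are approximate. The 10 genes together held 32 reads in WT_ES and 78 in DKO_ES, and 4991 in WT_NP and 8343 in DKO_NP. Levels are in FPKM, fragments counted per transcript length and library depth. Dnmt3a was at 35.3 FPKM in WT_ES against 12.3 in its knockout counterpart, and NPC levels were 17.2 and 4.14. Dnmt3b was at 140.3 and 13.9 in the ES libraries and 9.98 and 5.22 in the NPC libraries. Both were lower in the knockout of each stage, and a value per gene does not show which exons were read. The 8 ES cell markers summed to 3655 FPKM in WT_ES and 3412 in DKO_ES, and to 41.4 in WT_NP and 147.0 in DKO_NP. The 8 neural progenitor markers summed to 29.9 and 35.2 in the ES libraries and to 61.1 and 219.8 in the NPC libraries. WT_NP also carried markers of other lineages: 4 primitive red blood cell genes summed to 764.7 FPKM there and to 73.6 in DKO_NP, and 7 endoderm genes to 123.8 and 28.6.

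The sequences just before 4 of the start sites are shown, because Hoxc4, Hoxd3 and Hoxd4 were among the genes with the highest NPC levels and Hoxd1 was not. They are the 250 bases before each start in RefSeq on GRCm38.p6, a later build than the mm9 of the expression files, written 5′ to 3′ on the coding strand. Capitals mark AGGTCA on either strand (TGACCT when it lies on the other), the half-site that nuclear receptors such as the retinoic acid receptors recognize.
Hoxc4, chr15:103034145-103034394, plus strand: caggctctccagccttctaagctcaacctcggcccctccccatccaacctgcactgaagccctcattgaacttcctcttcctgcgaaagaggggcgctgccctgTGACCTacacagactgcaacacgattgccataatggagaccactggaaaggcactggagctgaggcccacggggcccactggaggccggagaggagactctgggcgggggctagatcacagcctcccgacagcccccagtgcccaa
Hoxd3, chr2:74711743-74711992, plus strand: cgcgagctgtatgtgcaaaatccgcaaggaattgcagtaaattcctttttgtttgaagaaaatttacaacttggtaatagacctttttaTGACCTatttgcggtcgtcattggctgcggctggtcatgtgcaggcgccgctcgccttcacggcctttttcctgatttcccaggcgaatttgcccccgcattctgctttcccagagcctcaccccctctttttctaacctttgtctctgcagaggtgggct
Hoxd4, chr2:74721728-74721977, plus strand: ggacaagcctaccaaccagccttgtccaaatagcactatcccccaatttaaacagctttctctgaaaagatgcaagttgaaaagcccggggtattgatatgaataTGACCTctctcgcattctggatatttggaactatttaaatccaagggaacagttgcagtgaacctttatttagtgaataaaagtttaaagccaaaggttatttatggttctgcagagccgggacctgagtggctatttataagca
Hoxd1, chr2:74762730-74762979, plus strand: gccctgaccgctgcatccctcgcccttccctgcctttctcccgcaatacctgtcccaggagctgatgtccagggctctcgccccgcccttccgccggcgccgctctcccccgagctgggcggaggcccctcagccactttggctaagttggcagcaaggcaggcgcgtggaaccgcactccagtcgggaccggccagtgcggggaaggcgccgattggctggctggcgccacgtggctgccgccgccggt
RefSeq windows of 300 bases, from 250 before to 50 after the start, were matched for 6 members. None was at hand for Hoxc5, which was also among the highest in NPCs, or for Hoxc6, Hoxc8 and Hoxc9. The Hoxc4, Hoxd3, Hoxd4 and Hoxd8 windows held 1 match to AGGTCA each, and those of Hoxd1 and Hoxd9 held 0, where 16.3% of all 32851 windows of that length held it. TGATNNAT, a paired Pbx-Hox type of site, was in 0 of the 6 windows and in 8.85% of all windows on either strand. Hoxd8, with 1 match, was low in NPCs, at 0.931 FPKM in WT_NP and 0.947 in DKO_NP. Its sequence is not among those shown, which were picked by level. Hoxd9, with 0, was at 0.255 and 0.277. Letters that match a short motif describe the sequence only, and a link between match and level was not tested. The windows differed widely in CpG: Hoxd1 held 29 CG pairs, Hoxd3 and Hoxd9 held 20 each, Hoxc4 held 9, Hoxd8 held 6 and Hoxd4 held 4, against a median of 7 over all windows. The pair with the highest Hoxd NPC levels, Hoxd3 and Hoxd4, thus lay on opposite sides of that median.

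In ES cells the 10 genes were near the floor of the measurement. Their FPKM values summed to 1.20 in WT_ES and 2.74 in DKO_ES. Hoxd1, a gene for which retinoic acid is a known inducer, was the highest in both, at 0.498 and 1.06 FPKM, and its knockout value was the only one of the 20 ES values above 1. Hoxd3 was listed at 0 in WT_ES, and Hoxc5 and Hoxc6 were listed at 0 in DKO_ES. A value listed at 0 can be a failed estimate in this table, since the housekeeping gene Lars2 was listed at 0 in WT_ES and at 10341 in DKO_ES, so no ratio of FPKM is given against it. Log2 ratios with 1 FPKM added take such a 0 as it stands, and those of Hoxd3 in the wild type and of Hoxc5 and Hoxc6 in the knockout rest on it. Within each ES library the 95% counting intervals of all neighbours in the order of levels met. Genes further apart in that order could still differ. The ratio of Hoxd4 to Hoxd1 was 0.108 (0.0119 to 0.478) in WT_ES and 0.0939 (0.0240 to 0.266) in DKO_ES.

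In NPCs 4 genes carried nearly all of the signal. Hoxc4, Hoxc5, Hoxd3 and Hoxd4 together gave 94.8% of the members' summed FPKM of 54.6 in WT_NP and 96.1% of 126.6 in DKO_NP. In ES cells the same 4 genes gave 12.5% and 17.6% of the far smaller sums. The remaining 6 genes summed to 2.82 FPKM in WT_NP and 4.90 in DKO_NP. In bulk RNA, more cells that express a gene and more RNA per cell cannot be told apart.

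**Figure D1:**
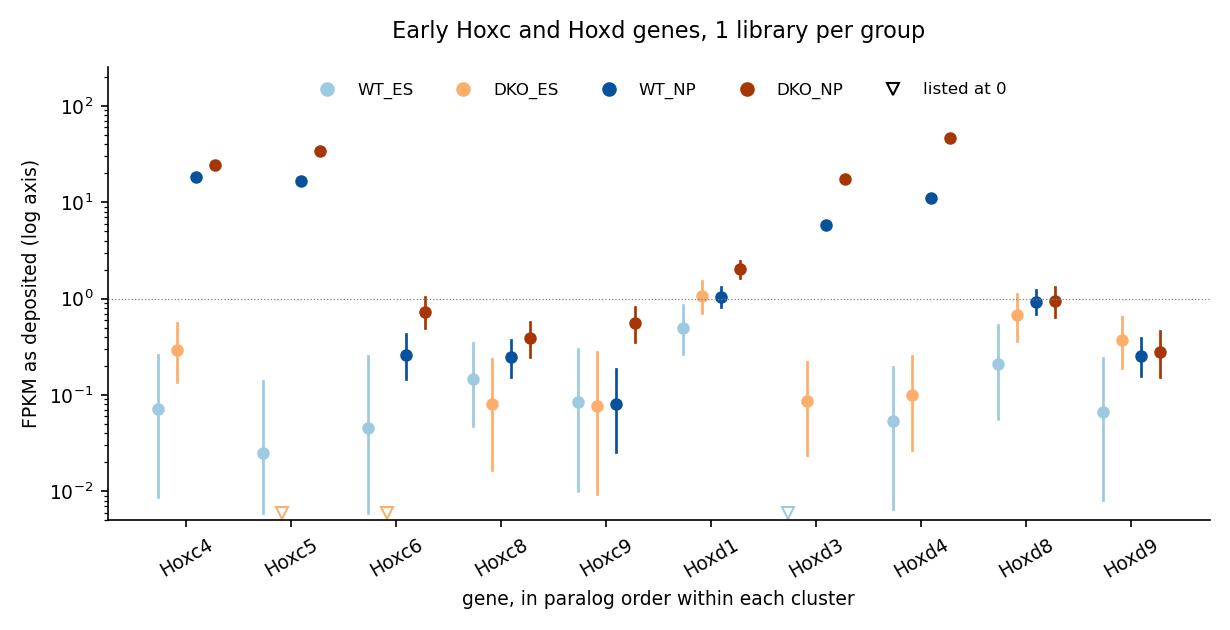
FPKM as deposited (log axis) of the 10 genes in the 4 libraries, 1 point per library, with exact 95% Poisson counting intervals from the recovered reads as vertical lines; lines that reach below the axis end at its foot, open triangles mark genes listed at 0 and the dotted line marks 1 FPKM. Hoxc4, Hoxc5, Hoxd3 and Hoxd4 sit above 5 FPKM in both NPC libraries and below 1 in both ES libraries, while the other 6 genes stay at 2.01 or lower throughout.

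Wild-type differentiation, the first comparison, asks which of these genes go with the change from ES cells to NPCs. Folds are ratios of FPKM after scaling each library by the median ratio over 11334 genes, with 95% exact intervals that cover counting error only. Hoxc4, a posterior hindbrain and neck gene that also acts in antibody diversification in B cells, was at 0.0715 FPKM in WT_ES and 18.4 in WT_NP, a 505-fold difference (140 to 4175). Hoxc5, its neighbour in the cluster, was at 0.0252, from 1 read, and 16.6, a 1295-fold difference (232 to 51179). As deposited the folds were 257 (71.0 to 2123) for Hoxc4 and 659 (118 to 26028) for Hoxc5. The width of these intervals comes from the low ES counts.

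Hoxd4, which patterns the posterior hindbrain and the neck vertebrae and has a well-studied retinoic acid response element in its neural enhancer, was at 0.0540 FPKM in WT_ES and 11.1 in WT_NP, 406-fold higher (112 to 3357) after scaling and 206-fold (57.0 to 1707) as deposited. Hoxd3, needed for the first neck vertebrae, was listed at 0 in WT_ES and stood at 5.74 FPKM, from 641 reads, in WT_NP. Hoxd1 was at 0.498 and 1.05 FPKM, 4.14-fold higher (2.28 to 8.15) after scaling and 2.11-fold (1.16 to 4.15) as deposited. So among the Hoxd genes up to paralog 4 the NPC level was lowest for the one that was highest in ES cells.

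The trunk-level paralogs stayed low. Hoxc6, which acts in limb-level motor neurons, was at 0.0458 and 0.261 FPKM, 11.2-fold higher (1.73 to 472). Hoxc8, a brachial and thoracic gene, was at 0.147 and 0.246 FPKM, 3.29-fold higher (1.22 to 11.1). Hoxc9, which sets thoracic motor neuron identity, was at 0.0839 and 0.0798 FPKM, from 2 and 5 reads, with a fold of 1.87 (0.306 to 19.6) that covers 1. The 2 Hoxd genes of this stretch of the axis had folds of similar size. Hoxd8, a trunk gene, was at 0.208 and 0.931 FPKM, 8.79-fold higher (3.21 to 33.6). Hoxd9, a gene of the lumbar axis and the limb, was at 0.0671 and 0.255 FPKM, 7.48-fold higher (1.82 to 66.0). These folds are therefore differences between low levels, all under 1 FPKM as deposited on both sides. After scaling, Hoxd8 was at 1.39 in WT_NP. As deposited, the intervals of Hoxc6, Hoxc8 and Hoxd9 covered 1 as well, and that of Hoxd8 ran from 1.63 to 17.1.

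On the log2(scaled FPKM + 1) scale, 5 of the 10 genes were at least 2-fold higher in WT_NP and 0 were lower: Hoxc4 by 4.75, Hoxc5 by 4.66, Hoxd4 by 4.08, Hoxd3, from a value listed at 0, by 3.26 and Hoxd8 by 1.04. The background was 16.5% higher and 11.2% lower among the 14236 genes that reached 1 FPKM in at least 1 of the pair. The median of all 10 members was 0.97, beside 0.05 over those 14236 genes, a set that 6 of the 10 members reach. Scaling matters here, because the median over all genes as deposited was -0.82. Without it 4 members were at least 2-fold higher, with a background of 6.40% higher and 41.7% lower, Hoxd8 came to 0.68 and Hoxc9 turned from 0.07 to -0.01. Of the 9 genes with a fold, 8 had an interval above 1 after scaling and 5 as deposited. Here and below, intervals were counted over the members only, so no share over all genes stands beside these counts.

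Knockout differentiation, from DKO_ES to DKO_NP, is the same step without Dnmt3a and Dnmt3b. Hoxd4 was at 0.0993 FPKM in DKO_ES and 45.9 in DKO_NP, 637-fold higher (249 to 2341). Hoxd3 was at 0.0867 and 17.6 FPKM, 280.0-fold higher (109 to 1029). Hoxc4 was at 0.296 and 24.6 FPKM, 115-fold higher (60.2 to 251), and Hoxc5 was listed at 0 and stood at 33.6 FPKM, from 2427 reads. The 4 leading genes were thus those of the wild type.

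Hoxd1 was at 1.06 FPKM in DKO_ES and 2.01 in DKO_NP, 2.61-fold higher (1.72 to 4.08). Hoxc6 was listed at 0 and stood at 0.731 FPKM. Hoxc8 was at 0.0810 and 0.388, 6.60-fold higher (2.01 to 34.3), and Hoxc9 at 0.0772 and 0.554, 9.90-fold higher (2.46 to 86.5). The 2 Hoxd trunk genes differed less between the knockout libraries. Hoxd8 was at 0.671 and 0.947 FPKM, 1.95-fold higher (1.01 to 3.93), and Hoxd9 was at 0.370 and 0.277, with a fold of 1.03 (0.451 to 2.41) after scaling and 0.748 as deposited.

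Here 4 of the 10 genes were at least 2-fold higher on the log2(scaled FPKM + 1) scale and 0 were lower: Hoxd4 by 5.58, Hoxc5, from a value listed at 0, by 5.25, Hoxc4 by 4.51 and Hoxd3 by 4.25. The background was 12.0% higher and 11.3% lower after scaling, and 7.84% and 21.8% as deposited, where the same number of members was called. The median of all 10 members was 0.83, beside -0.01 over the 13900 genes that reached 1 FPKM, 6 members among them. Of the 8 genes with a fold, 7 had an interval above 1 after scaling and 6 as deposited.

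**Figure D2:**
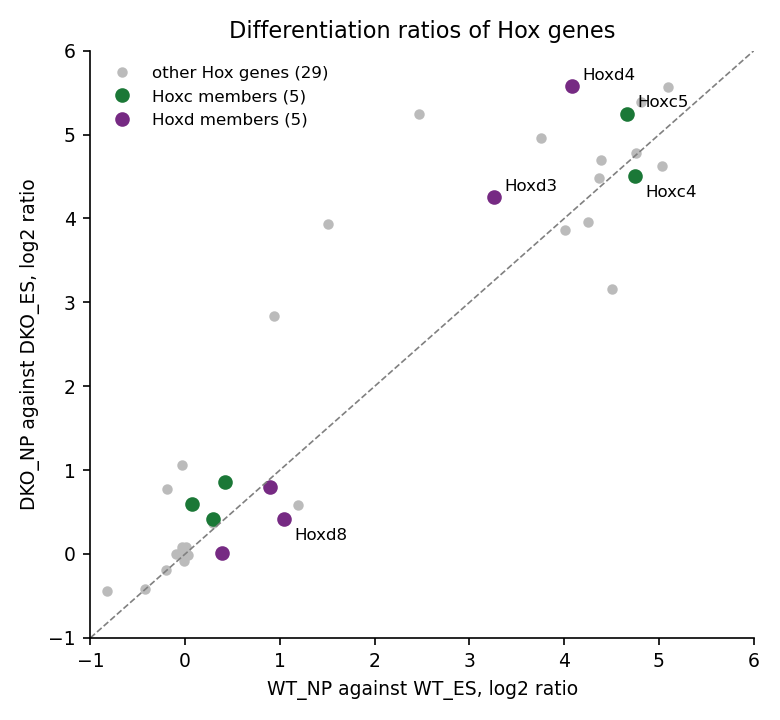
Log2 ratio of scaled FPKM + 1 between NPCs and ES cells in the wild type (x axis) and in the knockout (y axis), 1 point per Hox gene, with the 5 Hoxc and 5 Hoxd members in colour, the 29 other Hox genes in grey and the line of equal ratios dashed. After scaling Hoxd4 lies 1.50 above the line and Hoxd3 0.995 above it, while Hoxc4 lies 0.24 below it.

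The difference between the knockout and the wild-type log2 ratio puts both steps together. After scaling it was 1.50 for Hoxd4, 0.995 for Hoxd3, 0.59 for Hoxc5, 0.53 for Hoxc9, 0.43 for Hoxc6 and 0.12 for Hoxc8. It was -0.10 for Hoxd1, -0.24 for Hoxc4, -0.38 for Hoxd9 and -0.63 for Hoxd8. The values of Hoxd3, Hoxc5 and Hoxc6 each rest on 1 level listed at 0. A difference of 1 was reached by 1 member of 10, Hoxd4, and by 4.29% of 14789 genes upward and 8.88% downward. As deposited, 3 members reached it, Hoxd4 at 1.89, Hoxd3 at 1.34 and Hoxc5 at 1.01, with 11.8% of 14713 genes upward and 4.82% downward. On that scale Hoxc4 (0.13) and Hoxd1 (0.09) changed sign, and the median over all these genes was 0.43.

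Between genotypes at day 0, DKO_ES against WT_ES, the values were small numbers of reads. Hoxd9 was 5.81-fold higher in DKO_ES (1.29 to 53.5), on 12 reads against 2. Hoxd8 was 3.39-fold higher (1.06 to 14.1), on 14 reads against 4, and Hoxd1 2.24-fold higher (1.13 to 4.67), on 30 reads against 13. These 3 Hoxd genes were the members with an interval above 1 out of 7 with a fold, and 0 had an interval below 1.

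For Hoxc4 the fold was 4.36 (0.902 to 41.5), and for Hoxd4 1.94 (0.278 to 21.4). Hoxc8 gave 0.581 (0.0903 to 2.99) and Hoxc9 0.969 (0.0702 to 13.4), so that these 4 intervals covered 1. The highest scaled level of a member in either library was 0.845 FPKM, for Hoxd1. With 1 FPKM added, no member could therefore reach a 2-fold difference, and the count of 0 of 10 says nothing about them. The background of 2.66% higher and 1.19% lower after scaling, and 2.62% and 1.52% as deposited, covers genes at or above 1 FPKM and is no measure for these levels. With 0.1 FPKM added, 3 members were at least 2-fold higher: Hoxd8, Hoxd9 and Hoxc4, the last with an interval that covered 1. Hoxd1, whose interval lay above 1, was not among them. No share over all genes was computed with 0.1 FPKM added. The summed FPKM of the 6 fibroblast and feeder markers was 78.7 in WT_ES and 21.4 in DKO_ES, with 4 of the 6 at least 2-fold lower and 0 listed at 0. Its part in these differences was not tested.

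Between genotypes at day 6, DKO_NP against WT_NP, the genes differed among themselves. Both Hoxd3 and Hoxd4 were higher in DKO_NP, Hoxc5 was higher by less, and the interval of Hoxc4 covered 1 after scaling. Hoxd4 stood at 45.9 FPKM against 11.1, a fold of 3.04 (2.84 to 3.26), on 3089 and 1086 reads. Hoxd3 stood at 17.6 against 5.74, a fold of 2.26 (2.06 to 2.49), on 1357 and 641 reads. The Hoxc pair differed less, and from each other. Hoxc5 stood at 33.6 against 16.6, a fold of 1.50 (1.41 to 1.59). Hoxc4 stood at 24.6 against 18.4, a fold of 0.989 (0.915 to 1.07) after scaling and 1.34 (1.24 to 1.45) as deposited. These 4 genes have the narrowest intervals, and which side of 1 Hoxc4 lies on depends on the scaling.

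Hoxc9 was at 0.554 FPKM in DKO_NP and 0.0798 in WT_NP, a fold of 5.13 (1.92 to 17.2), on 24 reads against 5. Hoxc6 was at 0.731 and 0.261, a fold of 2.07 (1.07 to 4.15), and Hoxc8 at 0.388 and 0.246, a fold of 1.17 (0.627 to 2.18). Hoxd1 was at 2.01 and 1.05, a fold of 1.41 (1.03 to 1.94). Hoxd8 and Hoxd9 had the lowest folds of the 10. Hoxd8 was at 0.947 and 0.931, a fold of 0.751 (0.466 to 1.20) after scaling and 1.02 as deposited. Hoxd9 was at 0.277 and 0.255, a fold of 0.802 (0.382 to 1.65) after scaling and 1.09 as deposited. Intervals lay above 1 for 6 of the 10 genes after scaling and for 7 as deposited, and below 1 for 0. Without the share over all genes, these counts do not set the members apart from other genes.

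**Figure D3:**
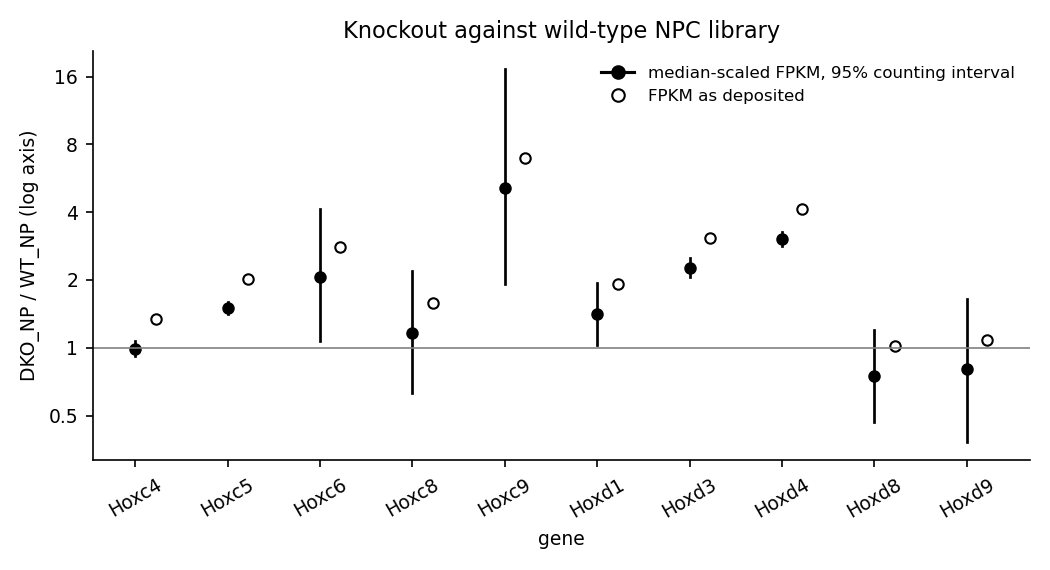
Ratio of DKO_NP to WT_NP (log axis) for each gene in paralog order within its cluster; filled points are ratios of median-scaled FPKM with 95% counting intervals as vertical lines, open points are ratios of FPKM as deposited, and the horizontal line marks a ratio of 1. Hoxd3 and Hoxd4 lie at 2.26 and 3.04 with narrow intervals, and Hoxc4 at 0.989.

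On the log2(scaled FPKM + 1) scale, 2 of the 10 genes were at least 2-fold higher in DKO_NP, Hoxd4 by 1.55 and Hoxd3 by 1.09, and 0 were lower. The background was 4.59% higher and 7.87% lower, and 10.2% and 3.90% as deposited. The median of all 10 members was 0.35, beside -0.00 over the 14127 genes that reached 1 FPKM, 6 members among them. The median over all genes as deposited was 0.39, so that the members' median of 0.49 on that scale lay closer to it. The comparisons share libraries (WT_NP stands in both the first and the last), so their values are not independent of each other.

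Ratios between 2 genes of the same library need no scaling between libraries. The ratio of Hoxd4 to Hoxc4 was 0.607 in WT_NP and 1.87 in DKO_NP, a 3.07-fold difference (2.77 to 3.41). The ratio of Hoxd3 to Hoxc4 was 0.313 and 0.716, a 2.29-fold difference (2.02 to 2.59). Within a cluster, Hoxd4 to Hoxd3 went from 1.94 to 2.61, a 1.34-fold difference (1.19 to 1.51), and Hoxc5 to Hoxc4 from 0.903 to 1.37, a 1.51-fold difference (1.37 to 1.67). The proportions among the 4 leading genes were thus unequal between the 2 NPC libraries by more than counting error.

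The same method showed unequal ratios inside the Hoxd cluster. Hoxd4 to Hoxd8 was 12.0 in WT_NP and 48.5 in DKO_NP, a 4.05-fold difference (2.53 to 6.56), and Hoxd4 to Hoxd1 was 10.6 and 22.9, a 2.16-fold difference (1.55 to 2.98). For Hoxc5 to Hoxc6, at 63.4 and 46.0, the interval of the difference covered 1 (0.725, 0.360 to 1.40). The order of levels changed with it. In WT_NP it ran Hoxc4, Hoxc5, Hoxd4, Hoxd3, Hoxd1, with no counting intervals meeting between neighbours, and Hoxd1 met Hoxd8. In DKO_NP it ran Hoxd4, Hoxc5, Hoxc4, Hoxd3, Hoxd1, Hoxd8, again with no intervals meeting, and from Hoxd8 down to Hoxc6, Hoxc9, Hoxc8 and Hoxd9 neighbours met.

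Gene models limit the Hoxd3 and Hoxd4 values. In GENCODE M21 the 2 genes share 388 exonic bases on the same strand, 9.26% of the exonic length of Hoxd3 and 13.2% of that of Hoxd4, and Hoxc5 shares 166 with Hoxc10. How reads in shared bases were divided is not given in the sources used here. An antisense gene over Hoxd3, listed under the symbol 1700109F18Rik, was at 0 FPKM in both ES libraries, 0.287 in WT_NP and 0.712 in DKO_NP. Because the labels do not state that strand was kept, its reads and those of Hoxd3 cannot be told apart where they overlap.

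**Figure D4:**
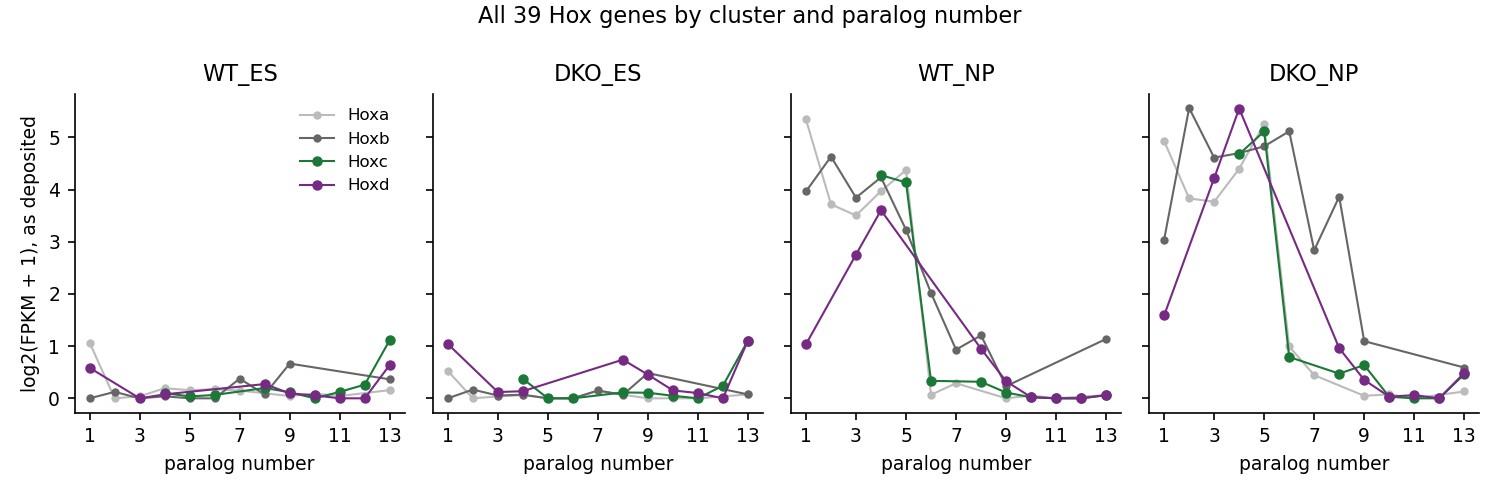
Log2(FPKM + 1) as deposited against paralog number for the 39 Hox genes, 1 panel per library and 1 line per cluster. In both NPC libraries the Hoxc line drops between paralogs 5 and 6 and the Hoxd line is highest at paralog 4. The Hoxb line in DKO_NP lies above its WT_NP level from paralog 2 to paralog 9 and below it at paralogs 1 and 13.

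Each cluster's NPC signal came mostly from its low paralog numbers. Paralogs 1 to 5 gave 98.2% of the summed Hoxc FPKM in WT_NP and 96.6% in DKO_NP, and 93.5% and 97.5% for Hoxd. In the Hoxa cluster the share was 99.6% and 98.7%, and in the Hoxb cluster 92.1% and 70.1%. Paralogs 6 to 9 gave 6.43% of Hoxb in WT_NP and 29.6% in DKO_NP. For Hoxc these shares were 1.65% and 2.78%, and for Hoxd 6.18% and 1.82%. In DKO_NP against WT_NP 4 of the 10 Hoxb genes were at least 2-fold higher, Hoxb6 the most by a log2 ratio of 2.78, and 1 was lower, Hoxb1 by -1.34, which was not called as deposited. Of the 11 Hoxa genes 0 were higher or lower.

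The 10 genes made up 18.6% of the FPKM of all Hox genes in WT_ES and 39.5% in DKO_ES, and 23.2% in WT_NP and 29.7% in DKO_NP. In wild-type differentiation 5 of 11 Hoxa and 8 of 10 Hoxb genes were at least 2-fold higher (5 and 7 as deposited), and in the knockout 6 of 11 and 8 of 10 (5 and 8 as deposited). The 8 later Hoxc and Hoxd genes, paralogs 10 to 13, had 0 such genes in either direction in all 4 comparisons after scaling. Their highest scaled level in any library was 0.922 FPKM, for Hoxd13. With 1 FPKM added, none of them could therefore reach a 2-fold difference, and this count says nothing about them. As deposited, Hoxc13 alone reached it, lower by -1.06 in wild-type differentiation. Among the flanking and noncoding genes of both clusters 9 of 13 were measured, and 0 were 2-fold higher or lower in wild-type differentiation after scaling, and 3 were lower as deposited. In the knockout, 1 was higher after scaling: Smug1, a DNA repair glycosylase beside the Hoxc cluster, by 1.26; as deposited it was not.

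Other genes of the retinoic acid response were read from lists of pathway genes. Among 18 genes of the retinoic acid pathway, each differentiation had 12 at least 2-fold higher and 1 lower after scaling, and 10 and 11 higher as deposited. Cyp26a1, which degrades retinoic acid, was highest in both, with log2 ratios of 6.83 in the wild type and 7.73 in the knockout, and the receptor gene Rarg was lowest, at -1.82 and -2.45. Of the 9 genes for TALE cofactors, the Meis, Pbx and Pknox proteins that bind DNA with Hox proteins, 7 were higher in the wild type and 6 in the knockout (as deposited 5, with 2 lower, and 6), with Meis1 at 5.76 and 5.04. In each NPC library 16 of the 18 pathway genes and all 9 TALE genes reached 1 FPKM.

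Between the NPC libraries fewer genes of these lists differed. In DKO_NP against WT_NP, 1 retinoic acid pathway gene was at least 2-fold higher after scaling, the carrier Crabp2 by 1.07, and 3 were lower, with Aldh1a2, which makes retinoic acid, at -1.79. As deposited, 5 were higher and 1 lower, so the balance of this list turns with the scaling. Of the TALE genes 0 were higher or lower, and the lowest of those at or above 5 FPKM was Meis2, at -0.97. Among 12 posterior and hindbrain regulators of Hox genes 2 were higher and 2 lower (2 and 1 as deposited). Among 19 Polycomb and Trithorax genes, which maintain silent and active Hox states, 1 was higher, Bmi1 by 1.25, and 1 lower, the histone demethylase Kdm6b by -1.15, against 2 and 0 as deposited.

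The 2 NPC libraries also differed in markers of cell type. In DKO_NP 6 of 8 neural progenitor markers were at least 2-fold higher, with a median log2 ratio of 1.47 and Hes5 at 2.86, and 4 of 8 ES cell markers were higher. Of the mesoderm markers 5 of 10 were lower, with summed FPKM of 85.4 in WT_NP and 29.8 in DKO_NP, and of the endoderm markers 5 of 7. Of the primitive red blood cell markers 3 of 4 were lower. After scaling, most neural progenitor markers were thus higher in the knockout library, and most endoderm and red cell markers lower. As deposited, 7 neural progenitor and 6 ES cell markers were higher. On that scale 5 endoderm, 3 red cell and 4 mesoderm markers were lower, and 1 mesoderm marker was higher. The 5 neuron markers summed to 8.82 FPKM in WT_NP and 43.9 in DKO_NP, with 3 of 5 higher on both scales. Both sums were below those of the ES libraries, 205.1 in WT_ES and 191.1 in DKO_ES. The 5 neural crest markers summed to 15.5 and 7.89, with 2 of 5 lower after scaling and 1 as deposited. The 6 fibroblast and feeder markers summed to 67.3 and 39.2, with 3 of 6 lower after scaling and 2 as deposited. None of the markers in these lists was listed at 0 in either NPC library. The part of these markers in the Hoxd3, Hoxd4 and Hoxc5 differences was not tested.

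Genes with the most similar levels were looked for by the distance between log2(scaled FPKM + 1) values over the 4 libraries, among 12827 genes outside the member set. For the summed Hoxc members the nearest was Hoxb2 (distance 0.789), at 0.0892 and 0.123 FPKM in the wild-type and knockout ES libraries and 23.8 and 46.2 in the NPC libraries. It was followed by Meis1 (0.912), the receptor gene Rarb (0.961), Tshz1 (1.02) and Plagl1 (1.06). For the summed Hoxd members the nearest was Gas1 (0.632), at 1.59, 2.08, 25.5 and 76.6 FPKM in the same order, a membrane protein gene in Hedgehog signaling. Cdh2 (0.985), the N-cadherin gene of neural tissue, Plagl1 (1.15) and Spsb4 (1.24) were also among the 5 nearest. Only Plagl1 stood in both lists of 5, and with 4 points the distance is a description.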

How the data were processed

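The authors deposited FPKM per gene symbol for 23235 genes in 4 libraries, with 18 blank rows that were left out and 0 columns without a sample. TruSeq libraries came from rRNA-depleted total RNA (5 µg, 15 PCR cycles) and were read from 1 end for 50 cycles, per the labels' protocols. The submitters' processing notes name TopHat, Bowtie and the build mm9; the FPKM program, its annotation and all versions were not given in the sources used.

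From these values, libraries were scaled by median of ratios over the 11334 genes at or above 1 FPKM in all 4, and log2((scaled FPKM + 1)/(scaled FPKM + 1)) was computed, counting a size of 1 or more as a 2-fold difference. A pseudocount of 1 understates folds of low genes. Background shares cover genes that reached 1 FPKM on either side of a comparison.

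The members' FPKM steps gave whole reads to within 0.00484 read, and 862 of 972 low genes (88.7%) came out whole within 0.05. They are the smallest whole numbers the steps allow; if the true reads are a multiple, intervals are too wide. For Hoxd8 the implied length was 1.39 kb against 2.74 kb of exons in GENCODE M21, where its closest transcript was 1.76 kb. For Hoxc9 the implied length was 1.72 kb and the closest transcript 2.37 kb, so its reads carry the same caution. Intervals are exact Clopper-Pearson or Poisson limits at 95% and cover counting error only, since PCR copies and cultures add spread.

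Named genes were the 10 members, the highest and lowest of each list among genes at or above 5 FPKM, and the 5 nearest genes. Other named genes were chosen after their values were seen. Some genes that this rule picks are not reported here. Members and lists were chosen with earlier results of these data known. Scripts were tested on simulated data. Python 3.11.15, numpy 2.4.6, pandas 2.3.3 and scipy 1.17.1 were used.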

Additional observations from a re-analysis of the deposited data

How the results depend on the processing

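With a pseudocount of 0.1 FPKM, 9 members were at least 2-fold higher in wild-type differentiation, 8 in knockout differentiation and 3 in DKO_ES against WT_ES, and the medians were 2.19, 2.66 and 0.55. No share over all genes was computed with 0.1 or 0.5 FPKM added, so these counts have no background beside them. With 0.5 FPKM the first 2 medians were 1.38 and 1.20. Over members at or above 1 FPKM in a library of the pair they were 3.67 and 4.38, and at or above 5 FPKM 4.37 and 4.88, with 0.83 in DKO_NP against WT_NP. These filters keep fewer genes. In both differentiation comparisons members passed them only through the NPC library, since no scaled ES level was above 0.845 FPKM. The higher medians there were therefore fixed by the filter and say nothing more about the members. Of 40 values per gene and comparison, use of FPKM as deposited changed the sign of 5 and lost 1 call (Hoxd8), a pseudocount of 0.1 FPKM gained 12 calls, one of 0.5 gained 3, and upper-quartile scaling changed 0 signs and 0 calls.

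As deposited, 13.3% of the genes called in wild-type differentiation were higher, against 59.6% scaled. The shares were 26.4% and 51.4% in knockout differentiation, 63.2% and 69.0% in DKO_ES against WT_ES, and 72.2% and 36.8% in DKO_NP against WT_NP.

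Leaving out a library would empty its group. No paired analysis was possible because each group holds 1 library. Levels under about 0.1 FPKM rest on 5 or fewer reads.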

Other observations

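The last paralogs of both clusters had the opposite pattern to Hoxc4 and Hoxd4, at low levels. Hoxc13, a hair and nail gene, was at 1.17 and 1.15 FPKM in the wild-type and knockout ES libraries and at 0.0434 and 0.377 in the NPC libraries. Hoxd13, a digit and genital gene, was at 0.558, 1.15, 0.0424 and 0.399 in the same order. Paralogs 10 to 13 gave 79.6% of the summed Hoxc FPKM in WT_ES and 75.1% in DKO_ES, against 0.162% in WT_NP and 0.659% in DKO_NP. For Hoxd they gave 41.9% and 36.9% in ES cells.

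Scaled Hoxc13 was 13.7-fold higher in WT_ES than in WT_NP (4.96 to 52.7), on 41 reads against 4, and 2.22-fold higher in DKO_ES than in DKO_NP (1.32 to 3.82). Scaled Hoxd13 was 6.69-fold (2.24 to 26.9) and 2.10-fold (1.27 to 3.54) higher in the same comparisons. In DKO_NP against WT_NP Hoxc13 was 6.42-fold higher (2.20 to 25.4) and Hoxd13 6.95-fold higher (2.41 to 27.4), both from 4 reads in WT_NP. Intervals cover counting error only.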
